A study of Mus musculus with 4 samples.

Results

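The solute carriers described here were 113 of 31253 features measured in mouse liver. They were the gene symbols of the Slc and Slco families, in the plain form of family number, letter a and member number, with a mean of at least 10 CPM (counts scaled to a common library total) over 4 tissue sections. Of 350 such symbols, 7 were left out by name (Slc1a2, Slc2a2, Slc10a1, Slc27a2, Slc27a5, Slco1a1 and Slco1b2) and 230 lay below that mean, 47 of them without a single count. The members came from 42 families, sorted by the family's usual substrates into 12 classes. The lowest members were Slc36a1 at 10.2 CPM, Slc15a3 at 10.4 and Slc35a4 at 11.2, and the nearest genes below the limit were Slc2a1 at 9.75, Slc25a32 at 9.74 and Slc10a2 at 9.72. Together the members took 0.876, 0.938, 0.909 and 0.893% of all counts in the sections MAFL-1 and MAFL-2, then MASH-1 and MASH-2, and values below follow this order.

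Livers were frozen, sectioned and read with 10x Visium, a slide method whose spots each sample a small region of tissue that can hold several cells, and unique molecular identifiers (UMIs) count the captured molecules. The MAFL mice had been fed the diet labelled WD for 8 weeks (2 sections) and the MASH mice for 16 weeks (2 sections). The labels spell out neither abbreviation, give no strain, sex, age or genotype, and leave unstated whether each section is from its own animal. P-values therefore measure only the spread between these sections. The disease model and the weeks on diet changed together and cannot be told apart. The sections held 2036, 1881, 2467 and 1862 spots and 32249289, 38126800, 63808230 and 44581221 UMIs. The 5 hepatocyte markers summed to 84555 to 91567 CPM, and every one was present in every section.

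Solute carriers move nutrients, ions, metals, vitamins, metabolites and drugs across cell and organelle membranes, many of them driven by the sodium gradient or by exchange of one solute for another. Hepatocytes line up between the portal vein, where blood from the gut arrives, and the central vein, where it leaves, and they divide their metabolism along that path. Amino acid breakdown, urea synthesis and glucose release are stronger near the portal vein, and glutamine synthesis and drug metabolism near the central vein. To place the members on this axis, the spots of each section were ranked by the log2 ratio of Cyp2f2, a periportal hepatocyte gene, to Cyp2e1, a pericentral one, and cut into 3 equal zones. The ranking followed markers it did not use: in the pericentral, middle and periportal zone of MAFL-1, Glul (glutamine synthetase, pericentral) stood at 289, 115 and 83.0 CPM and Hal (histidine ammonia lyase, periportal) at 111, 187 and 241. In all 4 sections Glul descended and Hal climbed from the pericentral to the periportal zone.

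The 250 bases upstream of Slc3a1 and Slc13a3 are printed because these members had the largest difference between the zones in either direction. They come from the RefSeq promoter table of build GRCm38.p6, and are read 5′ to 3′ on the strand of the gene. The Slc3a1 window lies at chr17:85028097-85028346 (plus strand) and the Slc13a3 window at chr2:165473198-165473447 (minus strand), each directly before the annotated gene. Capitals mark a match to the motif CAAAGTCCA of the hepatocyte factor HNF4 alpha.
Slc3a1: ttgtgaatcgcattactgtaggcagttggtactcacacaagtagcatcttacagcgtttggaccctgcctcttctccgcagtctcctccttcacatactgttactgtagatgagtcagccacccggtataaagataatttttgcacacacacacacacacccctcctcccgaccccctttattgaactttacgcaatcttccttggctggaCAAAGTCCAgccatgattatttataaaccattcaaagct
Slc13a3: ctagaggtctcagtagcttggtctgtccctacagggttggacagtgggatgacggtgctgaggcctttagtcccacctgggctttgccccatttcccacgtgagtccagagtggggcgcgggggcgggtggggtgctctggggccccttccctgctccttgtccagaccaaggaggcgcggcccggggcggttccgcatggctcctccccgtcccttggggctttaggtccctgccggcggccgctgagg

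The windows differ in base composition, with 45.6% G and C before Slc3a1 and 67.6% before Slc13a3. The table held windows for 87 of the 113 members. On either strand, CAAAGTCCA stood in 1 member, Slc3a1, where it starts 39 bases before the gene start, and in 150 of the table's 27025 genes (0.555%). The motif CTTTGAT of the TCF and LEF factors, which act downstream of Wnt signals, stood in 1 of 20 periportal members, 2 of 21 pericentral members and 2 of 46 members with no call, against 4.29% of all genes. Its reverse complement shares the letters CAAAG with the HNF4 alpha motif. A match is a description of these letters and not a binding site.

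Just over 50% of the solute carriers differed between the periportal and the pericentral zone. Of 113 members, 29 were higher in the periportal and 28 in the pericentral zone at an adjusted p under 0.05 in edgeR's quasi-likelihood test, which is 50.4%. Over all 12575 genes tested the share was 22.3%, with 11.2% in either direction, and over the 6349 genes with a mean of at least 10 CPM it was 30.6%. The median log2 difference was -0.03 over the members and 0.01 over all genes. With scaling by library totals alone, 53 members were called, 19 periportal and 34 pericentral. Most of these differences were small. Of the 57 called members, 8 differed by more than 1.5-fold, 5 of these by more than 2-fold, and the smallest difference was 1.09-fold. The direction was the same in 4 of 4 sections for 48 of them, in 3 of 4 for 8, and in 2 of 4 for 1 (Slc27a1).

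**Figure D1:**
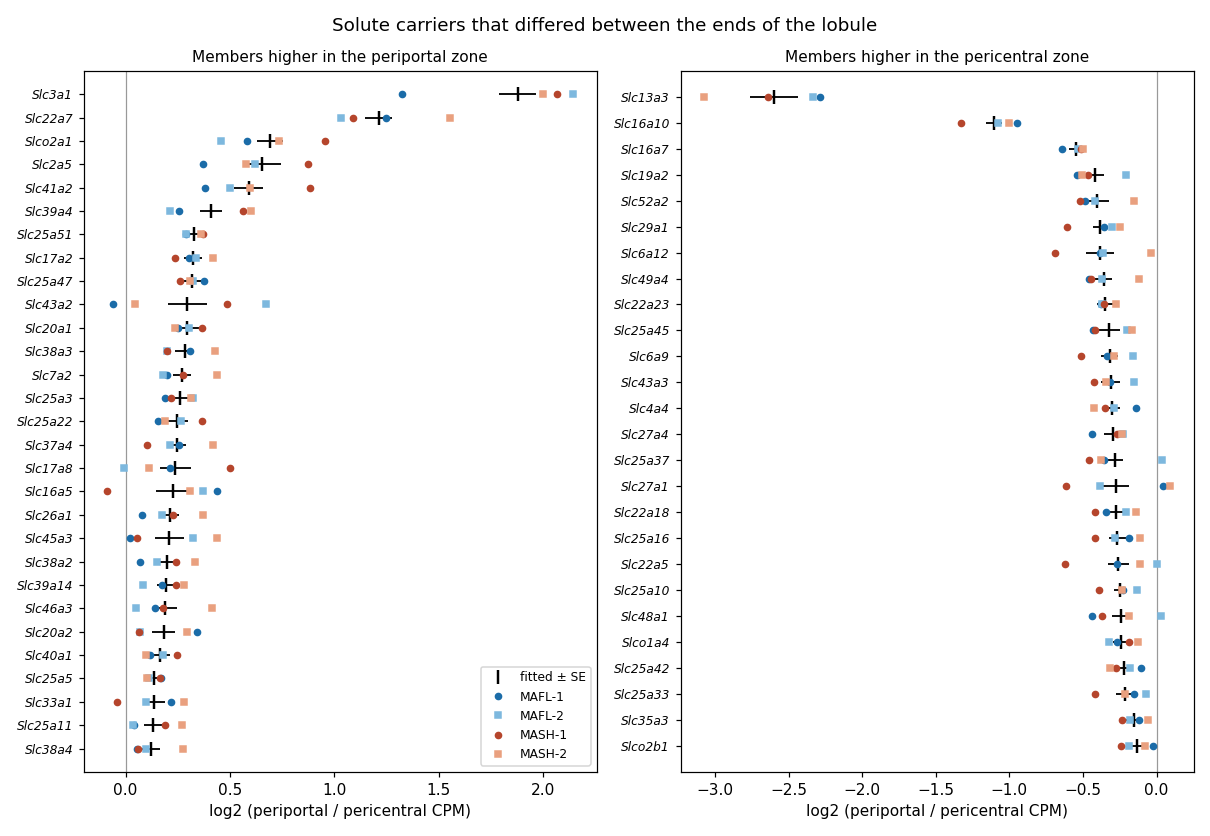
Log2 difference between the periportal and the pericentral zone (horizontal axis) for most of the solute carriers called in edgeR, with the fitted value and its standard error and a point for each of the 4 sections. Slc3a1 stands farthest to the periportal side at 1.88 and Slc13a3 farthest to the pericentral side at -2.60.

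Depth differed along the same axis in most sections. The median spot held 15631 UMIs in the pericentral and 15505 in the periportal zone of MAFL-1, 18560 and 22462 in MAFL-2, 22896 and 33004.5 in MASH-1, and 15751 and 34042 in MASH-2. When the zones were drawn within bins of equal UMI totals, 50 members were called, 46 of them among the 57. Markers of other cell types moved along it as well. The 5 bile duct markers summed to 43.2, 32.7, 35.5 and 153 CPM in the pericentral zone and to 129, 111, 165 and 405 in the periportal zone. The 5 endothelial markers summed to 131, 137, 154 and 184 CPM pericentrally and 112, 104, 128 and 110 periportally. The part of these cells in the differences below was not tested. In a spot, fewer cells of a type and less RNA per cell cannot be told apart.

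Of 15 amino acid carriers, 6 were called higher in the periportal zone and 3 in the pericentral zone, and 8 had positive and 7 negative log2 differences. Slc3a1 encodes the heavy chain that carries the cystine and basic amino acid exchanger to the membrane, and lies at chr17:85028347-85064241. It stood at 11.9, 6.51, 4.70 and 8.76 CPM in the pericentral, 19.8, 14.02, 6.94 and 13.9 in the middle and 30.01, 29.1, 19.99 and 35.3 in the periportal zone. The ranges of the end zones did not overlap, and the level climbed from zone to zone in every section. The fitted log2 difference was 1.88 (SE 0.09, adjusted p 4.56e-19 in edgeR), or 3.68-fold.

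Carriers of the main circulating amino acids shifted less. Slc38a3, which takes glutamine into hepatocytes, rose from 643, 946, 833 and 583 CPM to 797, 1085, 957 and 784 (log2 0.28, SE 0.05). Slc7a2, a carrier of arginine and other basic amino acids, rose from 256, 408, 211 and 182 to 294, 463, 255 and 247 CPM (log2 0.27, SE 0.04). Slc38a2 and Slc38a4, carriers of small neutral amino acids, were higher periportally by 1.15-fold and 1.09-fold. All of these were higher periportally in each of the 4 sections, although sections of the same zone differed by more than the zones did. Slc43a2, a carrier of large neutral amino acids, was higher periportally in 3 of 4 sections (log2 0.30, SE 0.09).

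The 3 amino acid family members higher pericentrally included the glycine carrier Slc6a9, at 35.3, 40.1, 34.4 and 36.4 CPM there and 27.9, 35.9, 24.1 and 29.7 periportally (log2 -0.32, SE 0.06). Slc6a12, which carries betaine and GABA, differed by log2 -0.38 (SE 0.10), and its close neighbour on chromosome 6, Slc6a13, 4853 bases away, was not called (log2 0.10). Slc43a3, a purine nucleobase carrier within an amino acid family, differed by log2 -0.31 (SE 0.07). It declined from zone to zone in all 4 sections.

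Of 7 carboxylate carriers, 4 were called higher pericentrally and 1 periportally. Slc13a3, the sodium-coupled carrier of succinate and other dicarboxylates at chr2:165405295-165473197, had the largest difference of all members. It stood at 22.99, 30.2, 34.9 and 30.1 CPM in the pericentral zone, 5.40, 15.01, 17.3 and 10.8 in the middle, and 4.64, 5.90, 5.51 and 3.48 in the periportal zone. No value of the periportal zone came near those of the pericentral zone, and the log2 difference was -2.60 (SE 0.16, adjusted p 5.38e-06 in edgeR), or 6.06-fold. In MAFL-1 the middle zone already lay close to the periportal level, and in the other 3 sections it lay between the ends.

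Slc16a10, a carrier of aromatic amino acids that belongs to the monocarboxylate family, was at 57.5, 77.3, 60.3 and 38.9 CPM pericentrally and 29.8, 36.7, 23.98 and 19.4 periportally. Its log2 difference was -1.10 (SE 0.06, adjusted p 2.79e-19 in edgeR), a gap that every section showed through 3 ordered levels. Slc16a7, a carrier of lactate, pyruvate and ketone bodies, fell from 36.9, 64.5, 82.9 and 79.5 to 23.6, 44.5, 57.99 and 56.2 CPM (log2 -0.54, SE 0.05). Slc16a5 was the member higher periportally (log2 0.23, SE 0.08), in 3 of 4 sections. Slc16a1, the more widely expressed lactate carrier, was not called (log2 -0.06, SE 0.07).

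Of 10 carriers of organic ions, 6 were called higher pericentrally and 2 periportally. Slc22a23, Slc22a18, the carnitine carrier Slc22a5, Slco1a4 and Slco2b1 were higher pericentrally by between 1.10-fold and 1.27-fold.

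The organic anion carrier Slc22a7 ran against the other called members of its family. It rose from 17.4, 34.9, 19.8 and 18.9 CPM pericentrally through 31.9, 47.1, 25.7 and 29.9 to 41.4, 71.5, 42.2 and 55.7 periportally (log2 1.21, SE 0.07, adjusted p 2.11e-16 in edgeR). The gene lies at chr17:46432185-46438477. The other periportal member was Slco2a1, the prostaglandin carrier, with 31.997, 26.6, 11.97 and 14.1 CPM pericentrally and 47.99, 36.7, 23.3 and 23.5 periportally (log2 0.69, SE 0.06). Its end zones overlapped across sections, because both MASH sections were low in every zone, but within each section the level climbed from step to step.

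**Figure D2:**
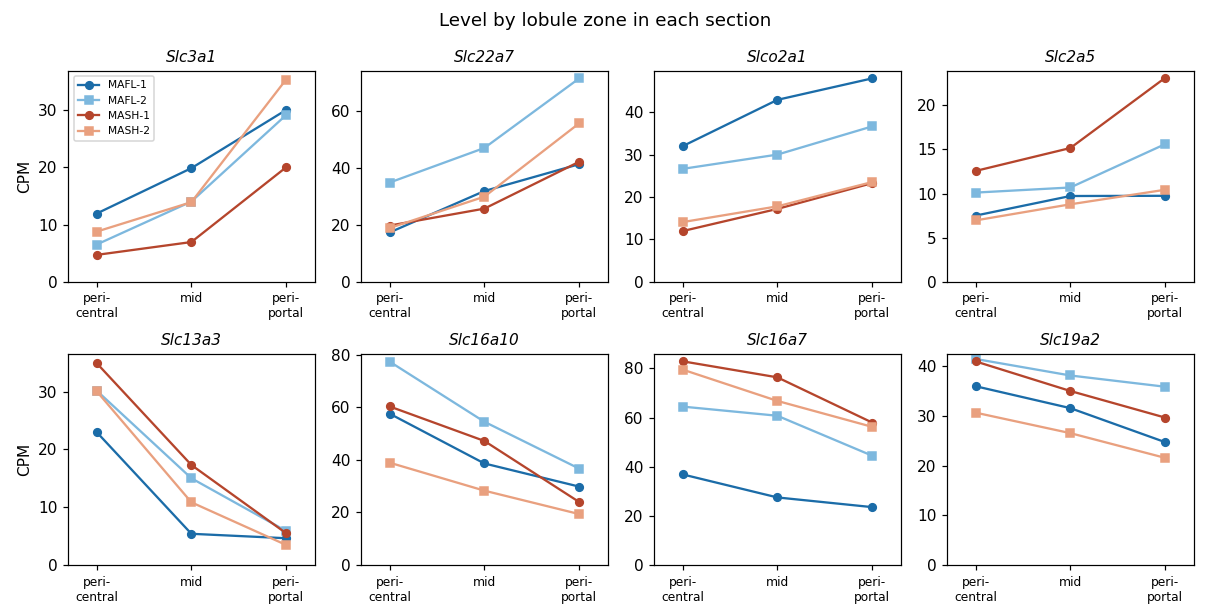
Normalised CPM (vertical axis) in the pericentral, middle and periportal zone of each of the 4 sections, for members with the largest differences. The lines of Slc3a1 and Slc22a7 climb and those of Slc13a3, Slc16a10 and Slc16a7 descend in all 4 sections.

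All 3 sugar carriers that were called were periportal, of 6 measured. Slc2a5, the fructose carrier, rose from 7.51, 10.1, 12.6 and 6.96 CPM to 9.75, 15.6, 23.1 and 10.4 (log2 0.65, SE 0.09, adjusted p 2.89e-07 in edgeR). Slc37a4, which brings glucose 6-phosphate into the endoplasmic reticulum for glucose release, rose from 167, 270, 245 and 190 to 200, 313, 263 and 254 CPM (log2 0.25, SE 0.05). Slc45a3 was 1.16-fold higher. Both leading members climbed through the middle zone in every section.

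Of the metal carriers, 4 of 17 were higher periportally and 1 pericentrally, and 12 were not called. Slc41a2, a magnesium carrier, had 39.7, 18.9, 7.49 and 10.3 CPM pericentrally and 51.7, 26.8, 13.9 and 15.6 periportally (log2 0.59, SE 0.07). Slc39a4, a zinc importer, rose from 40.7, 33.8, 26.6 and 34.2 to 48.7, 39.2, 39.4 and 51.99 CPM (log2 0.41, SE 0.05). The iron exporter Slc40a1 and the zinc and manganese importer Slc39a14 were higher by 1.12-fold and 1.14-fold, and the haem carrier Slc48a1 was lower by log2 -0.24 (SE 0.06). The copper importer Slc31a1 was not called, with its highest value in the middle zone of all 4 sections, for example 132 CPM in MAFL-1 against 125 pericentrally and 117 periportally.

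Slc39a4 has a neighbour of the opposite call. The riboflavin carrier Slc52a2 lies 64505 bases away on chromosome 15 and was higher pericentrally, at 21.1, 17.8, 12.2 and 12.04 CPM against 15.1, 13.3, 8.51 and 10.8 (log2 -0.40, SE 0.08). Among the 6 vitamin carriers, the thiamine carrier Slc19a2 was likewise pericentral, with 35.9, 41.4, 40.9 and 30.6 CPM against 24.7, 35.8, 29.6 and 21.5 (log2 -0.42, SE 0.06). Slc46a3, a lysosomal member of the folate carrier family, was the 1 higher periportally (log2 0.19, SE 0.06). The sodium-coupled biotin and pantothenate carrier Slc5a6, which has a class of its own, was not called (log2 -0.12).

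Mitochondrial carriers, the largest class, divided evenly, with 6 of 26 higher on either side and 14 not called. Slc25a47, found mainly in liver, was among the most abundant members, at 831, 741, 836 and 852 CPM pericentrally and 1078, 929, 1000.05 and 1056 periportally (log2 0.32, SE 0.04). Slc25a51, which brings NAD into mitochondria, rose from 40.5, 37.6, 31.7 and 35.7 to 49.5, 45.9, 40.96 and 45.9 CPM (log2 0.33, SE 0.05). The phosphate carrier Slc25a3, the glutamate carrier Slc25a22, the ATP and ADP exchanger Slc25a5 and the oxoglutarate carrier Slc25a11 were higher periportally by between 1.10-fold and 1.198-fold. On the pericentral side, the dicarboxylate carrier Slc25a10 stood at 187, 271, 297 and 239 CPM against 159, 247, 226 and 203 (log2 -0.25, SE 0.04). The iron carrier Slc25a37, the coenzyme A carrier Slc25a42, Slc25a16, the pyrimidine nucleotide carrier Slc25a33 and Slc25a45 were higher there by between 1.16-fold and 1.249-fold. The urea cycle carriers Slc25a15 (ornithine) and Slc25a13 (aspartate and glutamate) were not called, at log2 0.08 and 0.01.

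The remaining classes were small. In the class of 4 nucleoside and nucleotide sugar carriers, the 2 called members were pericentral. The nucleoside carrier Slc29a1, which lets nucleosides equilibrate across the membrane, had 145, 175, 157 and 106 CPM against 113, 142, 103 and 89.4 (log2 -0.38, SE 0.05), and the nucleotide sugar carrier Slc35a3 differed by 1.11-fold. Both called fatty acid carriers, of 3 lipid carriers, were pericentral as well, Slc27a4 by 1.23-fold and Slc27a1 by 1.21-fold. Among 8 ion carriers, the phosphate carriers Slc20a1 (log2 0.29, SE 0.06) and Slc20a2 (0.18, SE 0.06) and the sulfate and oxalate exchanger Slc26a1 (0.21, SE 0.04) were periportal. The sodium bicarbonate carrier Slc4a4 was pericentral (log2 -0.31, SE 0.05). Of 10 members with other substrates, Slc17a2, Slc17a8 and Slc33a1 were periportal and Slc49a4 pericentral. Slc17a2 differed by log2 0.32 (SE 0.04), while its neighbours on chromosome 13, Slc17a3 and Slc17a4, were not called (log2 0.09 and -0.12).

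A steady gradient in 1 direction over the 3 zones in all 4 sections was seen for 13 of the 29 periportal and 8 of the 28 pericentral members, and for 1 of the 56 members with no call (Slc30a10). The other 2 uncalled members that were ordered in each section ran in opposite directions between sections. Of the 57 calls, 30 were past the threshold in each of 13 alternative analyses. The weakest were Slc33a1 and Slc38a4, each past it in 4 of 13. Leaving out MAFL-1, MAFL-2, MASH-1 or MASH-2 gave 39, 38, 54 and 64 called members, and the median log2 difference of the members turned to 0.02 without MASH-1.

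Exporters of the ABC family, and proteins that drive or accompany the solute carriers, were zoned too. Of a list of 20 tested, 5 were periportal and 10 pericentral. The sodium pump, whose gradient drives many solute carriers, was periportal in the subunits Atp1b1 and Atp1b3. Atp1b1 had 35.7, 46.3, 34.7 and 32.7 CPM pericentrally and 60.0, 72.4, 75.1 and 72.5 periportally (log2 0.91, SE 0.05), and Atp1b3 differed by log2 0.24 (SE 0.06). The ABC exporters were mostly pericentral, among them Abcc3 (log2 -0.61), the sterol exporters Abcg8 (-0.50) and Abcg5 (-0.36), the phospholipid exporter Abcb4 (-0.48) and the canalicular Abcc2 (-0.40). The bile salt exporter Abcb11 was not called (log2 0.01, SE 0.05).

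Between MASH and MAFL whole sections, edgeR called 0 of 113 members, against 0.456% of 13593 genes tested. An unadjusted p under 0.05 in edgeR was seen for 22 members, and for 2605 of those 13593 genes. DESeq2 on the same counts called 9. Its share over all genes is not given here, so that count is not read as a trait of the members. The members' median log2 difference was -0.11, with 73 lower and 40 higher in MASH, against 0.01 over all genes. Over the 6351 genes with a mean of at least 10 CPM it was -0.05, with 3567 lower and 2784 higher. Scaling by library totals alone moved the median of all genes to 0.11 and that of the members to -0.01, with 59 lower and 54 higher. Both MASH sections lay below both MAFL sections for 38 members and above them for 15, against 26.4% and 26.9% of all genes. For 80 of 113 members, the larger of the gaps within the MAFL and the MASH pair exceeded the difference between the groups. The share over all genes was not computed, and taking the larger gap favours the gaps. That count is therefore not read as a trait of the members.

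The members with the smallest p-values are given with their values, and none of them passed the threshold in edgeR. Slco2a1 stood at 40.5 and 31.3 CPM in MAFL and 17.9 and 19.2 in MASH (log2 -0.95, SE 0.17, adjusted p 0.0738 in edgeR). Slc30a10, which exports manganese, had 29.5 and 19.4 against 11.6 and 9.08 (log2 -1.24, SE 0.24, adjusted p 0.0809 in edgeR). In both the groups did not overlap, but the MAFL sections stood well apart from each other.

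Of the 17 metal carriers, edgeR called 0 and DESeq2 3, the latter without its share over all genes. An unadjusted p under 0.05 in edgeR was seen for 5 of them, and for 1283 of the 6351 genes with a mean of at least 10 CPM. The log2 difference was negative for 14 of the metal carriers, as it was for 3567 of those 6351 genes. The haem carrier Slc48a1 was at higher values in MASH, 40.1 and 35.97 CPM against 30.4 and 31.5. Slc41a2 had the largest, with 44.1 and 22.9 CPM in MAFL and 10.2 and 12.8 in MASH (log2 -1.54, SE 0.34, adjusted p 0.121 in edgeR). The zinc carriers Slc39a7 (143 and 113 against 78.8 and 83.1 CPM) and Slc39a14 (161 and 140 against 103 and 103 CPM) did not overlap between the groups. DESeq2 called Slc30a10, Slc41a2 and Slc39a7, and not Slc39a14. Without MAFL-2, edgeR also called Slc30a10 (adjusted p 0.0273) and Slc41a2 (0.0103). Without another section their edgeR adjusted p lay between 0.0642 and 0.335, and with the section number as a block at 0.164 and 0.251.

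Slc17a2, a phosphate and organic anion carrier, went from 236 and 191 to 132 and 115 CPM (log2 -0.79, SE 0.18, adjusted p 0.109 in edgeR). Slc52a2 was at 18.3 and 15.8 against 9.91 and 11.3, and Slc25a45 at 24.4 and 21.9 against 16.7 and 13.5. At higher values in MASH were Slc43a3, at 17.5 and 15.7 against 24.7 and 26.5 CPM (log2 0.63, SE 0.15), and the ascorbate carrier Slc23a1, at 9.73 and 16.1 against 21.5 and 26.2 (log2 0.88, SE 0.25). In each of these the groups did not overlap.

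**Figure D3:**
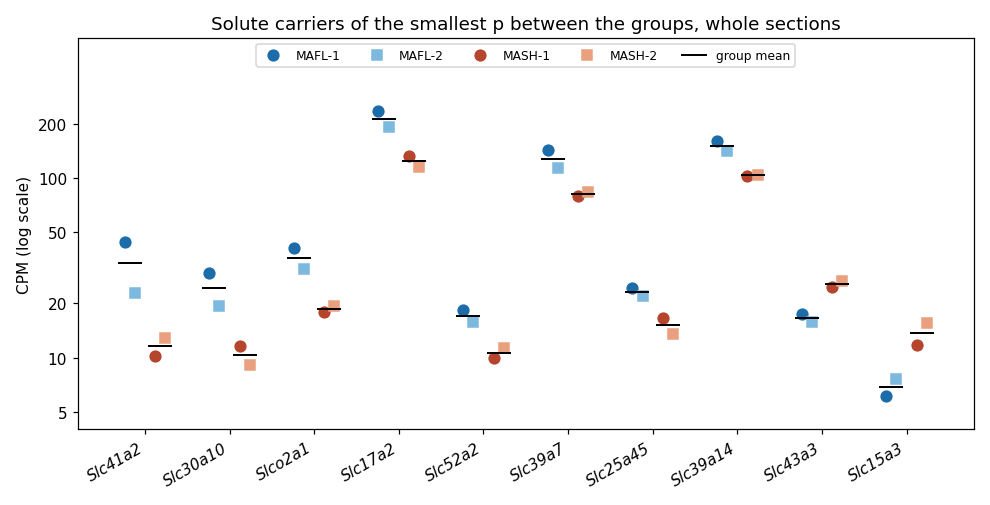
Normalised CPM of whole sections (log axis) for the 10 solute carriers with the smallest p between MASH and MAFL, with 1 point per section and a bar at each group mean. The MASH points lie apart from the MAFL points for each gene, in a set picked by its p. Of all genes, 26.9% lay apart with MASH higher and 26.4% with MASH lower. None of the 10 passed an adjusted p of 0.05 in edgeR.

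Slc15a3, an endolysosomal carrier of histidine and peptides known from macrophages, was at 6.08 and 7.57 CPM in MAFL and 11.8 and 15.5 in MASH (log2 0.997, SE 0.20, adjusted p 0.0842 in edgeR). Its edgeR adjusted p was 0.0338 without MASH-1, 0.383 without MAFL-1, 0.110 without MAFL-2, 0.250 without MASH-2 and 0.191 with the section number as a block. It is the 1 member whose MAFL mean alone was under 10 CPM, so its place among the members rested on its MASH values and its group difference is a description. Macrophage markers moved with it: the 7 monocyte and macrophage markers summed to 110 and 130 CPM in MAFL and 411 and 460 in MASH, and the 5 Kupffer cell markers to 247 and 328 against 478 and 437. Their part in the difference was not tested.

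Within single zones, edgeR called 1 member in the pericentral zone, 0 in the middle and 1 in the periportal zone, against 0.602%, 0.445% and 1.28% of all genes. In the middle zone 23 members had an unadjusted p under 0.05 in edgeR, against 1932 of 11908 genes tested. Of the 6349 genes with a mean of at least 10 CPM, 1129 did. DESeq2 called 5 members there, given without its share over all genes. The pericentral call was Slco2a1, which fell from 32.4 and 26.8 to 12.02 and 14.4 CPM (log2 -1.17, SE 0.19, adjusted p 0.0345 in edgeR). It did not pass without MAFL-1 (0.199) or MAFL-2 (0.0602), with library totals alone (0.101), in zones drawn within UMI bins (0.0984) or with the section number as a block (0.0959). In the periportal zone its values were 47.1 and 35.9 against 22.8 and 23.1 CPM, in the same order, with no call in edgeR (adjusted p 0.0663) but one in DESeq2 (0.0205) and in edgeR without MAFL-2 (0.0222). Markers of other cells also differed between the groups in the pericentral zone. There the 6 stellate and fibroblast markers summed to 211 and 211 CPM in MAFL and 327 and 538 in MASH, the 5 endothelial markers to 131 and 137 against 154 and 184, and the 7 monocyte and macrophage markers to 110 and 126 against 332 and 438. Among the endothelial markers, Pecam1 and Clec4g did not overlap between the groups there, whereas Stab2, Kdr and Lyve1 did. Kdr stood at 33.8 and 34.5 CPM in MAFL against 30.8 and 38.2 in MASH. The part of these cells was not tested.

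The periportal call was Slc15a3, at 6.68 and 6.88 CPM in MAFL and 12.6 and 14.4 in MASH (log2 0.99, SE 0.18, adjusted p 0.0455 in edgeR). Since the limit of 10 CPM admitted it only through its MASH values, the call is tied to that limit and supports nothing further. It did not pass without MAFL-1 (0.111), MAFL-2 (0.0808) or MASH-2 (0.109), or with the section number as a block (0.0908). In that zone the macrophage markers summed to 103 and 134 CPM in MAFL and 487 and 463 in MASH, and their part was not tested. On the partner list, Abcb1a, a drug exporter, rose there from 1.39 and 1.61 to 5.09 and 6.77 CPM (log2 1.97, adjusted p 0.0268 in edgeR, 0.0514 without MASH-2 and 0.0562 with the block).

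The difference between periportal and pericentral zones was also compared between the groups. No member (0 of 113) had an interaction past the threshold in edgeR or in DESeq2, against 0.525% of all genes in edgeR. An unadjusted p under 0.05 in edgeR was seen for 1095 of 12575 genes and for 12 members. The smallest p belonged to Slc39a4, whose periportal excess was log2 0.26 and 0.21 in the MAFL sections and 0.56 and 0.60 in the MASH sections (adjusted p 0.159 in edgeR). Both MASH values were above both MAFL values. Periportal spots were deeper than pericentral ones in both MASH sections and in MAFL-2, and the part of depth was not tested.

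Some members differed widely between the sections of a group. Slco1a4, an organic anion carrier, had 7.68 and 40.9 CPM across the MAFL pair, a gap of 5.33-fold, and at 62.7 and 28.6 in MASH. Slc25a30, a mitochondrial carrier, stood at 53.7 and 11.7 in MAFL (4.58-fold) and at 9.29 and 16.0 in MASH. In both members the groups overlapped. Slco1a4 was low in every zone of MAFL-1, with 8.91, 6.97 and 7.38 CPM from the pericentral to the periportal end. A gap over 1.5-fold was seen for 17 members between the MAFL sections and for 8 between the MASH sections. Shares over all genes were not computed, so these counts are not read as a trait of the members.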

How the data were processed

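The authors processed the Visium reads with Space Ranger 1.2.2 on mm10, per the file headers and the submitters' processing notes. The deposited matrices hold raw UMI counts per gene and spot. Spots under 500 UMIs were left out (3 each in MAFL-1 and MASH-1). Counts were summed per section, or per section and zone, and tested by the robust quasi-likelihood method of edgeR 4.0.16 after TMM scaling and the filterByExpr filter in R 4.3.3 with limma 3.58.1; p-values were Benjamini-Hochberg adjusted over all genes tested. The zone fit held 12 libraries, with section as a block and zone by group, and Cyp2f2 and Cyp2e1 were left out of it. Printed CPM are TMM-normalised within each fit, so the same zone can differ slightly between fits; the 10 CPM limit, shares and marker sums are raw. Standard errors (SE) come from the fits, with 2 sections per group. Zone scores added 1 to each gene's UMIs, and between 6.87 and 8.88% of spots lay within 0.1 log2 units of a border. Python 3.11.15, numpy 2.4.6, scipy 1.17.1, pandas 2.3.3 and matplotlib 3.10.9 did the rest. Each fit was tested on simulated data. There, false calls exceeded the nominal share between the groups, in whole sections and in each zone, and by less between the periportal and the pericentral zone. Calls close to the threshold are therefore uncertain.

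Section totals ran from 32249289 to 63808230 UMIs, and replicate sections differed far beyond counting error (chi-square per degree of freedom 67.7 in MAFL and 116 in MASH). Pairs of sections shared 1182 to 1725 spot barcodes, which come from a common list of slide positions. The deviations of MAFL-1 correlated at -0.19 with those of MASH-1 and at 0.19 with those of MASH-2. With 2 sections per group these values mirror each other, so they cannot decide whether the numbers pair the sections. All 113 members were found in the RefSeq gene table of GRCm38.p6.

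The members and lists were chosen with earlier results of these data known. Named were the called members with the largest differences (10 per direction between zones, 5 within them), the member of smallest p per class and direction, and for whole sections the 10 of smallest p. Other called members, and Slc23a1, Slc25a30, Slco1a4, Slc31a1, Slc16a1, Slc6a13, Slc17a3, Slc17a4, Slc25a13 and Slc25a15, were named after their values were seen. A few genes are not reported here by name but stayed in all counts and tests. Non-members came from a list of transporters and partner proteins. Alternatives were DESeq2 1.42.0, other size factors, library totals, no count filter, all spots, each section left out, the section number as a block, a 12-gene zone score, zones within 5 UMI bins, end classes of 20% and end zones alone.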

Additional observations from a re-analysis of the deposited data

Results flagged for a closer look

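A pair of partner genes differed between the groups in their zonation, by the interaction term of the zone fit. The periportal minus pericentral log2 difference of Abcb4, the phospholipid exporter, was -0.32 and -0.20 in the MAFL sections and -0.73 and -0.65 in the MASH sections, a difference of -0.43 (SE 0.09, adjusted p 0.00775 in edgeR). That of Atp1b1, a sodium pump subunit, was 0.75 and 0.65 in MAFL and 1.11 and 1.15 in MASH, a difference of 0.43 (SE 0.10, adjusted p 0.0282 in edgeR). With zones drawn within bins of UMI totals these came to -0.22 and 0.18, with adjusted p of 0.537 and 0.794 in edgeR. Neither passed without MAFL-1 (0.22 and 0.422) or without MAFL-2 (0.84 and 0.849), and Atp1b1 did not pass in DESeq2 (0.224), with library totals alone (0.125) or with the end zones alone (0.0575).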

How the results depend on the processing

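The count of members called between the zones stayed within 1.5 times of 57 under each of the 13 alternatives, from 38 (DESeq2, and without MAFL-2) to 64 (without MASH-2), and all 57 kept their sign in each. The counts between the groups moved more. They are given without the shares over all genes under the same settings, so they describe the settings and are not read as a trait of the members. Whole sections gave 9 members with DESeq2 and 14 with no count filter, and 0 to 2 with a section left out. The pericentral zone gave 5 with DESeq2, 17 with no filter, 0 with library totals alone, 0 with the replicate block, 0 within UMI bins and 0 to 15 with a section left out (0 without MAFL-1, 5 without MASH-2 and 15 without MASH-1). The middle zone gave 5 with DESeq2, 15 with no filter and 0 to 2 with a section left out. The periportal zone gave 5 with DESeq2, 17 with no filter, 0 with the replicate block, 2 within UMI bins and 0 to 8 with a section left out (0 without MAFL-1 or MASH-2, 8 without MAFL-2). The interaction gave 1 with no filter and 0 to 4 with a section left out (4 without MASH-1, 3 without MASH-2). The cause of these shifts was not tested. The replicate block called 0 members in each of the 4 group comparisons. Crossed numbers as a block, chosen after seeing the data, called 10, 6, 13 and 18 members (whole sections, then pericentral, middle and periportal zone). Of the named results, those that turned sign, all uncalled, were Slc35a1 between zones without MAFL-1 (-0.031, with -0.031 to 0.16 over the sections left out) and Slc2a8 without MASH-1 (0.054, with -0.29 to 0.054), and Slc25a30 between groups without MAFL-1 (0.10, with -2.10 to 0.10). The interaction of Slc6a12, uncalled over all sections, was called at 0.33 without MASH-1 and at -0.31 without MASH-2.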
